A study of Mus musculus with 3 samples.

Results

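The genes examined here are the 7 enzymes and cofactors that write, copy and remove DNA methylation in the mouse: Dnmt1 (ENSMUSG00000004099), Dnmt3a (ENSMUSG00000020661), Dnmt3b (ENSMUSG00000027478), Uhrf1 (ENSMUSG00000001228), Tet1 (ENSMUSG00000047146), Tet2 (ENSMUSG00000040943) and Tet3 (ENSMUSG00000034832). They were chosen for their function by Ensembl identifier and not by a rule on measured values, though with earlier results of these data known. Of these genes, 7 of 7 had a row among the 24318 rows with an identifier. H3K36me3, a histone mark laid down over the bodies of genes as RNA polymerase II transcribes them, was mapped in these cells by CUT&Tag, in which an antibody tethers a transposase that cuts and tags nearby DNA. The material was EpCAM-labelled epithelium, sorted by flow cytometry from the pancreas of wild-type (WT) C57BL/6 embryos of stage E11.5, of stage E13.5 and of stage E15.5, with the same H3K36me3 antibody at each stage. Each stage has 1 library, so the values below are those of 3 libraries, no difference was tested, and the spread between embryos is unknown. How many embryos went into a library is not given in the labels. The 3 stages were set side by side to follow the mark through organogenesis of the pancreas.

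DNA methylation in mammals sits mainly on cytosines followed by guanine (CG). Dnmt3a and Dnmt3b place it on unmethylated DNA. Both carry a PWWP domain that binds nucleosomes methylated at H3K36, the residue whose trimethylated form, H3K36me3, was measured here. After replication, Uhrf1 recognises CG sites methylated on the old strand alone and brings in Dnmt1, which copies the methylation to the new strand. Tet1, Tet2 and Tet3 oxidise methylcytosine and so open the way to its removal. In the developing mouse pancreas, Dnmt1 is known to be needed for the survival of progenitor cells. The data here report the H3K36me3 mark over the genes that encode these enzymes, not the enzymes, their transcripts or DNA methylation itself.

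Each deposited row gives 3 signals, headed GB, PR and SE in the files, each a mean coverage per position of a window. The headers do not spell these names out. For 6 of the 7 genes the length of the GB window, recovered from the values, equalled to the base the distance from an annotated RefSeq start of that gene to its far end in GRCm38.p6, the assembly that the build name mm10 refers to. For these genes GB is therefore taken as the signal over the gene body, from that start to the end, exons and introns together. Dnmt1 lies on the minus strand at chr9:20907206-20959888, and its GB window of 52683 positions is the whole gene. Uhrf1, on the plus strand at chr17:56303337-56323486, likewise had a window of its full 20150 positions. Tet1, minus strand, chr10:62804570-62887469, had a window of 82755 positions, 145 short of the annotated gene. Tet2, minus strand, chr3:133463677-133545136, had one of 80714 positions, 746 short. For Dnmt3b, plus strand, chr2:153649411-153687730, it was 38282 positions, 38 short. Dnmt3a, plus strand, chr12:3801559-3914443, gave a smallest length of 53732 positions, and 2 times that, 107464, is the exact distance from the RefSeq start at position 3806980 to the gene's end, so the larger length was used. Tet3, minus strand, chr6:83362373-83457208, gave 94019 positions, 817 short of the gene, and this length matched no listed start. The deposited files hold no gene names, and these lengths were the check that identifiers and names belong together. For Dnmt3a the check held only after the doubling. For Tet3 it was not met, so its name rests on the list of identifiers alone. That GB of Tet3 covers its gene body is assumed.

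The starts at which the GB windows begin differ in their CG content, the substrate of the enzymes themselves. In the 250 bases before the start at position 20959888 of Dnmt1, where its GB window begins, there are 2 CG, whereas the 250 bases before the RefSeq start at position 20952623, which lies 7265 positions further into the gene, hold 26. The windows of Dnmt3a and Dnmt3b begin at starts preceded by 38 and 21 CG. These sequences are shown because they mark where each gene body of the maintenance enzyme and of both de novo enzymes was taken to begin, and how the Dnmt1 starts differ. They are read from RefSeq (GRCm38.p6), 5′ to 3′ on the gene's own strand, with CG in capitals. Their places, in the order printed, are chr9:20959889-20960138 (minus), chr9:20952624-20952873 (minus), chr12:3806730-3806979 (plus) and chr2:153649199-153649448 (plus).
Dnmt1, start of the GB window: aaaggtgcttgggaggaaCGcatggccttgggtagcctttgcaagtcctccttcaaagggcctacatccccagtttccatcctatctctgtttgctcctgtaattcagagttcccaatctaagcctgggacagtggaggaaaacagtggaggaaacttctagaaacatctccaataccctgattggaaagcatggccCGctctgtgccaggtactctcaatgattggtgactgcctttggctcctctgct
Dnmt1, RefSeq start inside the GB window: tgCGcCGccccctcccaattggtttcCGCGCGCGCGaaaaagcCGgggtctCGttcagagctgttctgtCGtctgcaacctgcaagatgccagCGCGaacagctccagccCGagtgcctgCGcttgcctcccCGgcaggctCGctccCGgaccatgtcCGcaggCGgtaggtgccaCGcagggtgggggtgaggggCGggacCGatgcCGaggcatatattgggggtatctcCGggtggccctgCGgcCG
Dnmt3a, start of the GB window: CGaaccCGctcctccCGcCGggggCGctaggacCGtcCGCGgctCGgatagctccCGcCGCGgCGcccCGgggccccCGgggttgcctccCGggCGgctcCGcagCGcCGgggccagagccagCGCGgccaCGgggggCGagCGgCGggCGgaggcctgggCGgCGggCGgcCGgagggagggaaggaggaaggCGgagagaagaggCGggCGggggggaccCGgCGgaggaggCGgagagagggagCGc
Dnmt3b, start of the GB window: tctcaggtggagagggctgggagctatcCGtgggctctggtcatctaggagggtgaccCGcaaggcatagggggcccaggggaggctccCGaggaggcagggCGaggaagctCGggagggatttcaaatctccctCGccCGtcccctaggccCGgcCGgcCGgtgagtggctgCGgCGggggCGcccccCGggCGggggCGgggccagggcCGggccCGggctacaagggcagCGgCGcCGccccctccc

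CG reads the same on both strands, and 92.1% of the 32851 windows of this length in the RefSeq table hold at least 1, with a median of 6. Among those windows the first Dnmt1 start was at the 23.9th percentile of CG count and the start inside the gene at the 90.9th. The remaining Dnmt1 start, at position 20952979, had 7 CG. The starts that open the GB windows of Dnmt3a, at the 98.3rd percentile, and Dnmt3b, at the 84.4th, were CG-rich. Dnmt3a has other listed starts 180 and 84764 positions downstream, with 40 and 15 CG. Uhrf1 has 2 listed starts, the one that opens its GB window with 10 CG and one 976 positions downstream with 30. The starts that open the GB windows of Tet1 and Tet2 had 15 and 51 CG, the last at the 99.9th percentile. The only listed Tet3 start, at position 83441678, had 17 CG, and the GB window of Tet3 was not matched to it. Where the PR window lies relative to these starts is not given, so whether PR of Dnmt1 covers its CG-rich start was not tested. The distance of 7265 positions between both printed Dnmt1 starts is larger than the 6000 positions of the PR window.

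The read depth of the files is unknown. PR sums over 6000 positions, and SE sums over 12000, were whole multiples of a single step per library (0.162, 0.167 and 0.163 in stage order), and a step is read here as 1 read over 1 position, which no source states. Counted in steps, the GB values of the 7 genes rest on 848 to 11668 steps each, with a median of 3290. PR values rest on 0 to 1238 steps with a median of 182, and SE values on 40 to 1550 with a median of 304. If a step is 1 read over 1 position, a read adds 1 step for each position it covers. Sums in steps are then not counts of reads, and the number of reads behind a value is unknown. The smallest sums above 0, such as 26 steps for Dnmt1 PR at E15.5, could come from 1 read or part of it. Typical sums, such as the medians of 182 steps for PR and 304 for SE, may also rest on few reads. The PR and SE differences below carry this limit. Over all identified rows the median PR sum was 146, 132 and 206 steps in stage order. GB sums had the highest median, over longer windows, and GB is described first. No antibody control was analysed here, so the background level is unknown. Whether the sorted cells show the markers of pancreatic epithelium was not tested, since neither the files nor the reference pair identifiers with names. In such bulk libraries, fewer cells carrying the mark and less mark per cell cannot be told apart.

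**Figure D1:**
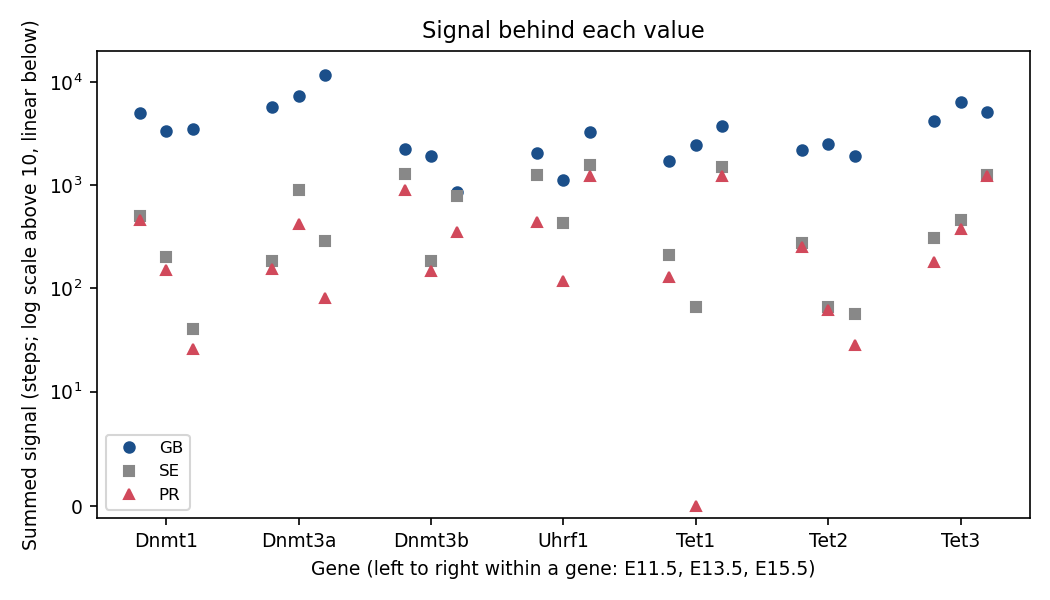
Summed signal behind each value, in steps (1 step is the smallest unit of a library), for GB (circles), SE (squares) and PR (triangles) of the 7 genes, with E11.5, E13.5 and E15.5 from left to right within a gene. The vertical axis is logarithmic above 10 and linear below; GB sums run from 848 to 11668 steps, and PR sums from 0 to 1238.

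Over gene bodies, H3K36me3 signal was above the median of identified rows in 6 of 7 genes at E11.5 and E15.5 and in 7 of 7 at E13.5. The median of the 7 genes was 0.00868, 0.00937 and 0.00891 in stage order, against 0.00432, 0.00421 and 0.00371 over all rows, in deposited units per position. The exceptions were Tet1 at E11.5 and Dnmt3b at E15.5. These medians include rows with GB listed at 0, which were 12.95%, 14.83% and 20.33% of rows in stage order. Among rows above 0, Tet2 was also below the median, at the 43.3rd percentile at E11.5 and the 38.3rd at E15.5. So was Tet1 at E13.5, at the 49.8th. Because GB is a mean per position, levels can be set against each other between genes. High GB values were rarer among rows of at least 50000 positions than among all rows. Each level is therefore also given as a percentile among rows of like window length. These were 5039 rows of at least 50000 positions for Dnmt1, Dnmt3a, Tet1, Tet2 and Tet3. For Dnmt3b and Uhrf1 they were 7870 rows of 12000 to 50000 positions.

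The maintenance pair stood high at each stage. Dnmt1, the maintenance methyltransferase, had GB of 0.0152, 0.0107 and 0.0108 in stage order. Its highest value was at E11.5 and the later values were nearly equal. These levels were at the 93.5th, 87.9th and 78.8th percentile of all identified rows, and at the 99.6th, 98.3rd and 94.5th among gene bodies of at least 50000 positions. Uhrf1, the reader of hemimethylated CG that recruits Dnmt1, had GB of 0.0165, 0.00937 and 0.0266 in stage order, lowest at E13.5 and highest at E15.5. In its length band Uhrf1 stood at the 97.4th, 84.3rd and 97.5th percentile. Uhrf1 had the highest GB of the 7 genes at both E11.5 and E15.5, and 3 of them were above it at E13.5.

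As deposited, the de novo enzymes went in opposite directions. Dnmt3a had GB of 0.00868, 0.0114 and 0.0177 in stage order, higher at each later stage. The difference between E13.5 and E15.5 did not keep its direction under quantile normalization, with a log2 ratio of -0.11, and among all rows Dnmt3a stood at the 79.6th, 89.6th and 88.0th percentile. Dnmt3b had 0.00952, 0.00831 and 0.00361, lower at each later stage. Their order therefore changed: at E11.5 Dnmt3b was slightly above Dnmt3a, and at E15.5 it was the lowest of the 7 genes. Among rows of its length band Dnmt3a was at the 94.0th, 98.8th and 98.6th percentile. Dnmt3b was at the 82.0th, 78.0th and 34.3rd. The sum behind Dnmt3b at E15.5, 848 steps, was the smallest of the GB sums, against 2252 and 1899 at the earlier stages. Dnmt3a rested on 5762, 7326 and 11668 steps.

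Among the TET dioxygenases, Tet3 had the highest GB at each stage and Tet2 stayed near the median of all rows. Tet1 had GB of 0.00333, 0.00494 and 0.00740 in stage order, from the 40.1st percentile of all rows at E11.5 to the 69.3rd at E15.5. Within its length band it went from the 34.9th to the 64.8th and the 85.1st percentile. Tet2 had 0.00438, 0.00515 and 0.00383, at the 50.7th, 59.3rd and 50.9th percentile of all rows. In its length band it was at the 54.3rd, 68.3rd and 54.3rd. Tet3 had 0.00716, 0.0113 and 0.00891, with its highest value at E13.5. In its length band Tet3 was at the 86.7th, 98.7th and 90.6th percentile. At E15.5 the order of the TET genes was Tet3, Tet1 and Tet2, whereas at E11.5 it was Tet3, Tet2 and Tet1.

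**Figure D2:**
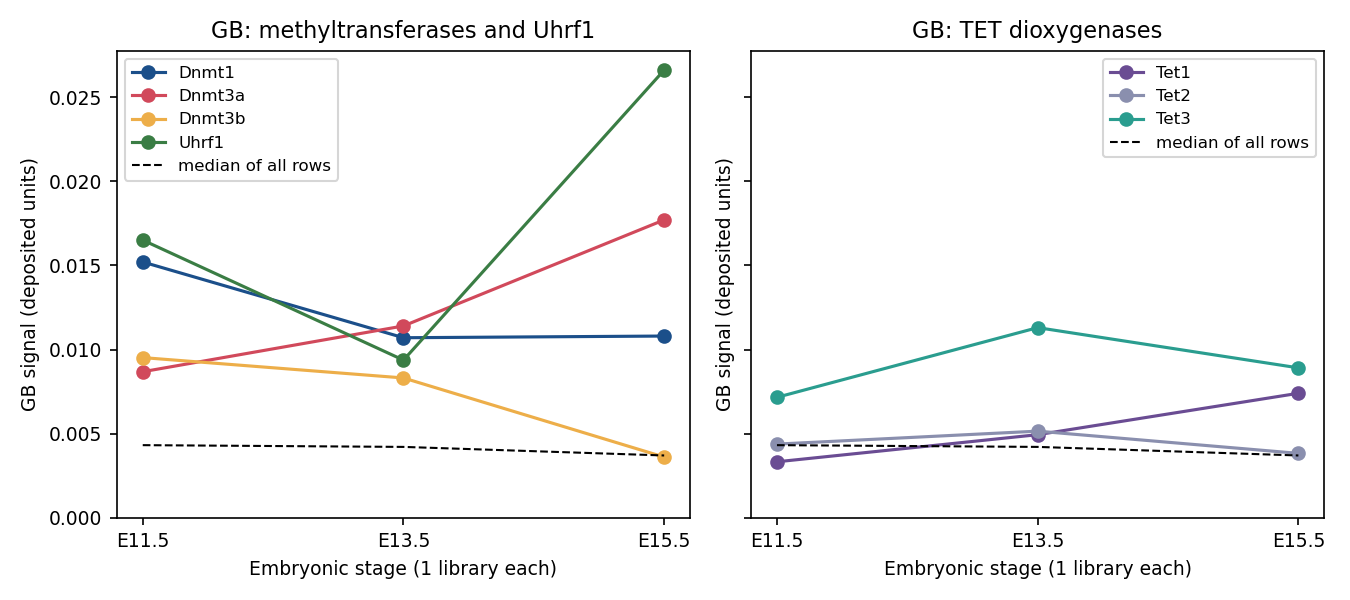
GB signal (vertical axis, deposited units per position) of the 4 methyltransferase and cofactor genes (left) and the 3 TET genes (right) at each stage; each point is 1 library, lines join the values of a gene, and the dashed line is the median of all identified rows. Dnmt3a goes from 0.00868 to 0.0177 while Dnmt3b goes from 0.00952 to 0.00361.

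The first interval runs from E11.5 to E13.5. Differences are given as log2 of the later over the earlier value after adding 0.001 to each, for rows whose higher value reached the floor of 0.00413, the median of GB over identified rows and libraries. The 7 genes reached it in each GB comparison. At least 2-fold, in either direction, is used as a mark of size. In this interval 0 of 7 genes were at least 2-fold apart, where 36.6% of all rows above the floor were, 6.41% of rows of at least 50000 positions and 23.0% of rows of 12000 to 50000 positions. Uhrf1 was lower by the most, with a log2 ratio of -0.75, at the 19.5th percentile of ratios in its length band. Dnmt1 had -0.47, at the 17.7th percentile of its band. Tet3 had 0.59, Tet1 0.46 and Dnmt3a 0.36, at the 89.1st, 84.1st and 79.1st percentile. Dnmt3b, with -0.18, and Tet2, with 0.19, were closest to level. The median log2 ratio was 0.19 over the 7 genes and -0.07 over all rows above the floor.

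Between E13.5 and E15.5, 2 of 7 genes were at least 2-fold apart in GB. The background was 49.7% of all rows, 17.1% of rows of at least 50000 positions and 38.9% of rows of 12000 to 50000 positions. Uhrf1 was higher at E15.5, with a log2 ratio of 1.41 (2.84 times the E13.5 value). Dnmt3b was lower, with -1.01, just past the mark. Both genes belong to the band with the 38.9% background, where their ratios stood at the 88.3rd and 16.9th percentile. Dnmt3a had 0.59 and Tet1 0.50, at the 81.3rd and 77.1st percentile of the long band. Dnmt1 had 0.01 (-0.50 under quantile normalization), Tet3 -0.31 and Tet2 -0.35. For Dnmt3b the ratio became -0.86 when each library was divided by its median GB, and for Uhrf1 0.69 under quantile normalization.

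Over the whole span, from E11.5 to E15.5, 1 of 7 genes was at least 2-fold apart. It was Dnmt3b, lower at E15.5 with a log2 ratio of -1.19, at the 15.0th percentile of its length band. Of all rows 49.4% were that far apart, of rows of at least 50000 positions 16.7% and of rows of 12000 to 50000 positions 39.1%. Tet1 and Dnmt3a fell just short of the mark, with log2 ratios of 0.96 and 0.95. Both stood at about the same place among long gene bodies, the 92.2nd and 92.0th percentile, and without the added 0.001 they were 2.22 and 2.04 times their E11.5 values. Their higher level at E15.5 kept its direction under the scalings run, from 0.88 to 1.14 for Tet1 and from 0.47 under quantile normalization to 1.15 for Dnmt3a. Dnmt3b kept its lower level likewise, from -1.27 to -1.01. Uhrf1 had 0.66, which turned to -0.14 under quantile normalization. Dnmt1 had -0.46, Tet3 0.28 and Tet2 -0.16. For Dnmt1 the size depended on the scaling, from -0.97 under quantile normalization to -0.25 when each library was divided by its median GB. This comparison shares its libraries with both intervals above and is not independent of them.

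**Figure D3:**
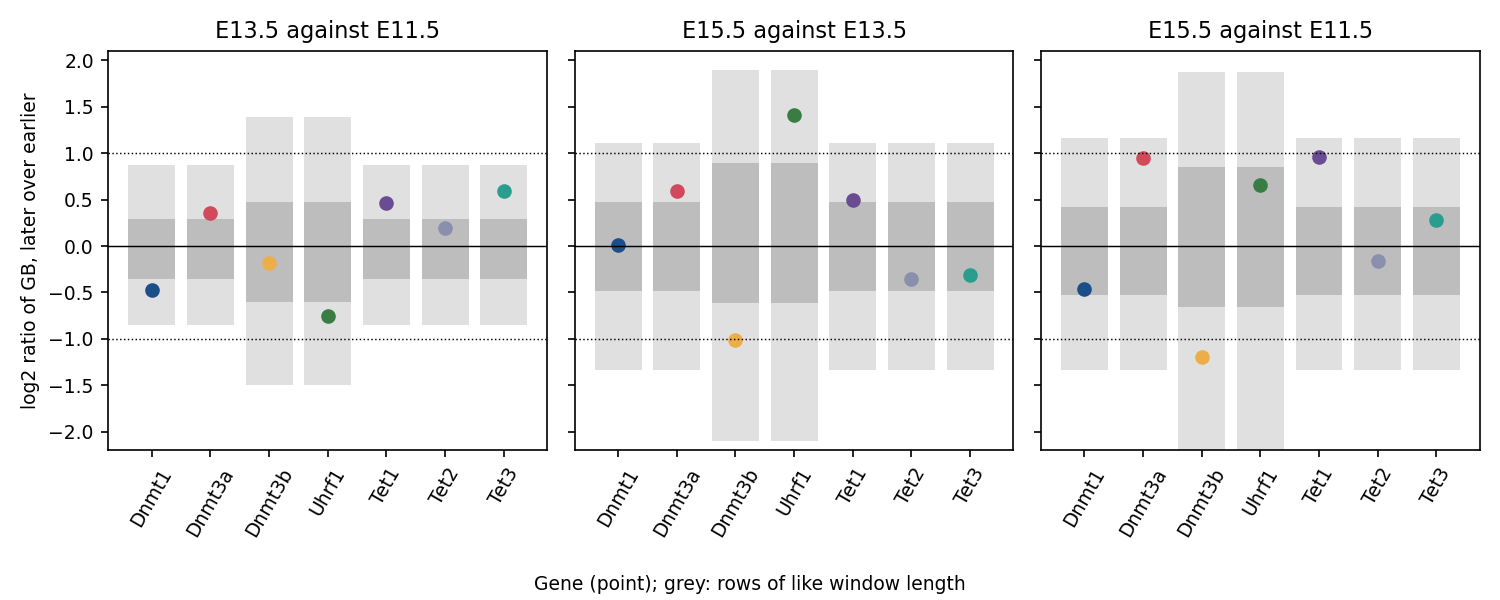
Log2 ratio of GB, later over earlier stage, for the 7 genes (points) in the 3 comparisons; behind each gene the light grey bar spans the 5th to 95th percentile and the dark grey bar the 25th to 75th percentile of ratios among rows of like window length. Dotted lines mark 2-fold. Each of the points lies inside its light grey bar.

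PR signal, over a window of 6000 positions, followed other patterns than GB in several of these genes and rested on fewer steps. At E11.5 Dnmt3b had the highest PR, 0.0240, at the 99.0th percentile of all identified rows. At E13.5 it had 0.00413 and later 0.00961, so its PR was lowest at E13.5 while its GB was lowest at E15.5. Dnmt1 had PR of 0.0124, 0.00419 and 0.000707 in stage order, lower at each later stage, from 460 steps to 150 and 26. Uhrf1 had 0.0118, 0.00329 and 0.0331, with the dip at E13.5 that its GB also showed. For Dnmt3a the highest PR was at E13.5, with 0.00415, 0.0117 and 0.00217, whereas its GB was highest at E15.5. This E15.5 PR value rests on 80 steps and the GB value on 11668.

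The TET genes parted in PR at E15.5. Tet1 was listed at PR 0.00345, 0 and 0.0331 in stage order, so no fold is given against E13.5. Tet3 had 0.00491, 0.0105 and 0.0336, higher at each later stage. Tet2 had 0.00680, 0.00173 and 0.00076, lower at each later stage and down to 28 steps. At E15.5 PR was 4.47 times GB for Tet1 and 3.77 times GB for Tet3, against 1.04 and 0.685 times at E11.5. Tet1, Tet3 and Uhrf1 were between the 90.6th and 90.9th percentile of PR at E15.5, where PR was higher than at the earlier stages over the rows as a whole. Tet1 and Uhrf1 list the same PR value there, which 6 rows of that library share, and their GB and SE values differ.

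Most of the 7 genes were at least 2-fold apart in PR in each comparison, as were most rows. For E13.5 against E11.5 there were 5 genes, 1 higher (Dnmt3a) and 4 lower (Dnmt1, Dnmt3b, Uhrf1 and Tet2). Tet3 had 0.96, which became 1.33 under quantile normalization, and Tet1 was below the PR floor of 0.00407 in both libraries. The background was 61.5% of rows above the floor. For E15.5 against E13.5 there were 6, with Dnmt3b, Uhrf1, Tet1 and Tet3 higher and Dnmt1 and Dnmt3a lower. PR was higher at E15.5 over the rows as a whole, with a median log2 ratio of 1.12 above the floor. Among those ratios Dnmt3b stood at the 48.7th percentile and Tet3 at the 59.4th, near the middle. Uhrf1 stood at the 82.8th and Tet1, listed at 0 at E13.5, at the 98.9th. Dnmt1 and Dnmt3a stood at the 20.8th and 18.4th. Tet2 was below the floor, and 76.8% of rows were that far apart. Under quantile normalization the ratios of Dnmt3b and Tet3 became 0.30 and 0.26, short of the mark, and for Dnmt3b it was 0.95 when each library was divided by its median GB above 0. For E15.5 against E11.5 there were 6, with Uhrf1, Tet1 and Tet3 higher and Dnmt1, Dnmt3b and Tet2 lower, against 76.0% of rows. Dnmt3a had -0.70. For Uhrf1 the ratio of 1.42 became 0.23 under quantile normalization. With 3 genes higher and 3 lower, the median log2 PR ratio of the 7 genes for the whole span was that of Dnmt3a. It therefore describes no shared direction. Over all rows above the floor the median was 1.0. Among those ratios Uhrf1, Tet1 and Tet3 stood at the 57.8th, 82.9th and 77.5th percentile. Dnmt1, Dnmt3b and Tet2 stood at the 9.1st, 24.4th and 18.3rd.

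SE covers 12000 positions, and its sum was below the PR sum in 0 of the identified rows, so its window is taken to contain that of PR. Dnmt3b had SE of 0.0173, 0.00257 and 0.0106 in stage order, and Uhrf1 had 0.0169, 0.00604 and 0.0210, both lowest at E13.5 as in PR. Dnmt1 had 0.00680, 0.00279 and 0.000543. At each stage most of its SE signal lay in the PR part, with 44, 50 and 14 steps outside it. Dnmt3a had 0.00248, 0.0125 and 0.00391. At E13.5, 477 of its 898 steps lay outside PR, so the higher value there was seen in both parts of the window. Tet1 had 0.00285, 0.000921 and 0.0202, with 83, 66 and 272 steps outside PR. Tet2 had 0.00372, 0.000921 and 0.00076, and Tet3 0.00410, 0.00645 and 0.0171. For Tet3 at E15.5, 24 of 1262 steps lay outside PR, so its high SE was the PR signal again.

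In SE the floor was 0.00460, and fewer of the genes reached it. For E13.5 against E11.5, Dnmt3a was at least 2-fold higher and Dnmt1, Dnmt3b and Uhrf1 lower, 4 genes in all, where 44.8% of rows were that far apart. Tet1 and Tet2 were below the floor. For E15.5 against E13.5, Dnmt3b, Uhrf1, Tet1 and Tet3 were higher and Dnmt3a lower, 5 genes, against 63.6% of rows. Dnmt1 and Tet2 were below the floor. The median log2 ratio over all rows above the floor was 0.85. Among those ratios Dnmt3b, Uhrf1, Tet1 and Tet3 stood at the 73.1st, 71.8th, 97.5th and 62.4th percentile, and Dnmt3a at the 14.3rd. Quantile normalization took Uhrf1 from 1.65 to 0.79 and Tet3 from 1.28 to 0.45, short of the mark. For E15.5 against E11.5, Tet1 and Tet3 were higher and Dnmt1 lower, 3 genes, against 62.5%, with Dnmt3a and Tet2 below the floor. Dnmt3b had -0.66 and Uhrf1 0.30, which under quantile normalization became -1.54, past the mark, and -0.74, the other direction. Over all rows above the floor the median log2 ratio was 0.71. Tet1, Tet3 and Dnmt1 stood at the 89.1st, 77.7th and 9.5th percentile of those ratios, and Uhrf1 and Dnmt3b at the 40.0th and 23.6th. SE holds the PR signal, so these values do not add independent support to those of PR.

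**Figure D4:**
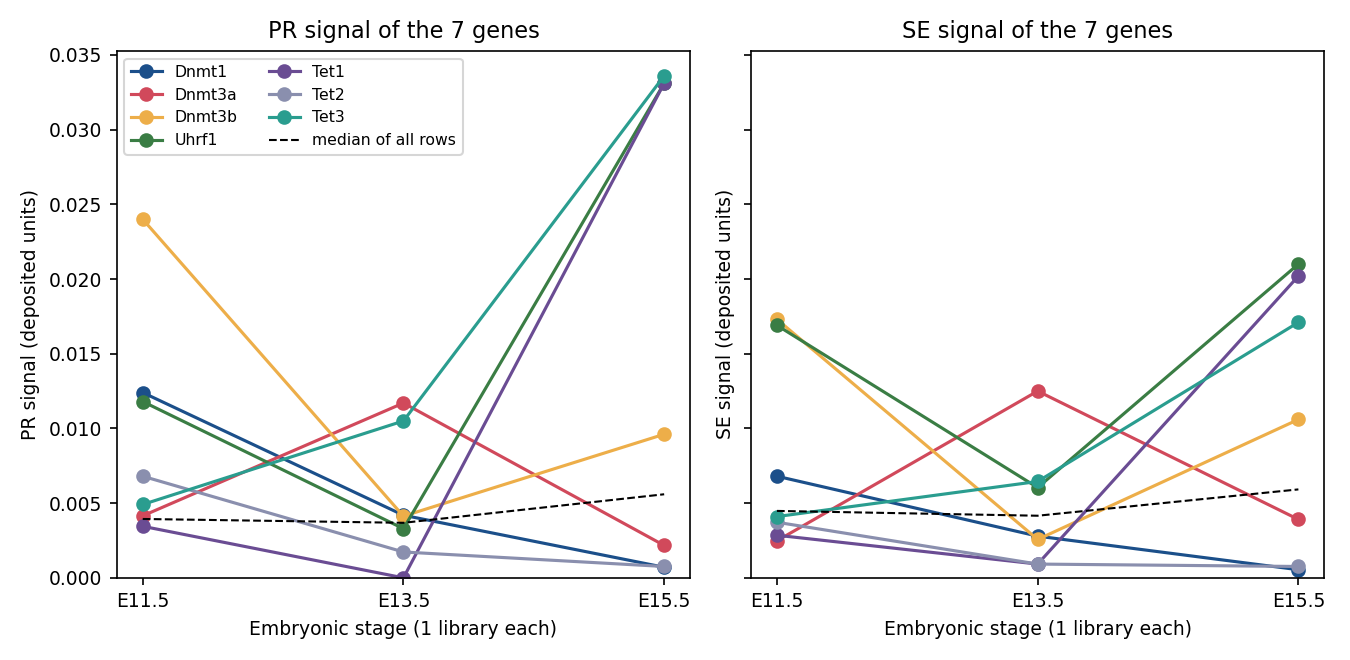
PR (left) and SE (right) signal of the 7 genes at each stage, in deposited units per position on a common vertical axis; each point is 1 library and the dashed line is the median of all identified rows. Tet1, Tet3 and Uhrf1 share the top at E15.5 in PR, at 0.0331 to 0.0336, and Dnmt1 and Tet2 are below 0.001.

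Set side by side, the columns showed the same order of stages in only some genes. SE holds the PR signal, and whether the PR and SE windows overlap that of GB is not known. A like order in the 3 columns is therefore not independent support. As deposited, Uhrf1 was lowest at E13.5 and highest at E15.5 in GB, PR and SE. Under quantile normalization its E15.5 values were below those of E11.5 in GB and SE. Dnmt1 was highest at E11.5 in the 3 columns. For Dnmt3a, deposited GB was highest at E15.5 but PR and SE at E13.5. Dnmt3b had its highest value at E11.5 in the 3 columns, with the lowest at E15.5 in GB and at E13.5 in PR and SE. Tet1 was highest at E15.5 in the 3 columns, and lowest at E11.5 in GB but at E13.5 in PR and SE. Tet3 was highest at E13.5 in GB and at E15.5 in PR and SE. Tet2 was lowest at E15.5 in the 3 columns, though its GB values lay within a ratio of 1.34 of each other, and quantile normalization turned its GB log2 ratio over the whole span to 0.01 and its SE log2 ratio of E15.5 against E13.5 to 0.66.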

How the data were processed

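H3K36me3 CUT&Tag signal of 3 libraries, 1 per stage, was analysed from 3 files of 25493 rows, of which 1175 had no identifier and were left out. Bowtie2 2.4.2 and build mm10 are listed in the submitters' processing notes, with no further detail. Per the file headers, the authors deposited 3 columns of signal (PR, GB and SE). Filters, window definitions, gene models and scaling are not given in the sources used here. Values were compared as deposited.

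The members and lists were chosen with earlier results of these data known. The 7 genes were named by rule. Lists of other DNA methylation genes, cell type markers and genes of like pattern could not be used, because the RefSeq table holds 0 Ensembl identifiers. Percentiles are among identified rows, with ties at their middle rank.

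Steps were fitted to PR sums (100% whole within 0.05 steps). GB lengths are the smallest number of positions giving sums of 2 decimals and whole steps in the libraries above 0, found for 20132 rows. Such a length can be a fraction of the true one, as for Dnmt3a. That doubling, the band of 12000 to 50000 positions and the 2-fold shares within bands were chosen after seeing the data. With 1 library per stage no test was run. The length search was tested on simulated data with even numbers of steps only, whereas some sums here are odd. The 2-fold rule was run on simulated rows without added noise. That run could not show how often unchanged genes would be called. Python 3.11.15, numpy 2.4.6, pandas 2.3.3 and numba 0.67.0 were used.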

Additional observations from a re-analysis of the deposited data

How the results depend on the processing

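Counts of genes at least 2-fold apart are given for the first interval (to E13.5), the second interval (to E15.5) and the whole span, in this order. They were 0, 2 and 1 for GB, 5, 6 and 6 for PR and 4, 5 and 3 for SE. A pseudocount of 1, far above these values, gave 0 in each comparison of each column. With 0.005, GB gave 1 and 0 in the last comparisons, PR 2 in the first, and SE 2 and 3 in the first comparisons. With 0.0001, and with no pseudocount, GB gave 3 over the whole span, as Dnmt3a and Tet1 passed the mark. A floor 5 times higher gave 1 and 0 for GB in the last comparisons, 1 and 3 for PR in the first comparisons, and 0 for SE in each. At 1.5-fold, GB gave 2 in the first comparison and 4 over the whole span. Dividing each library by its median GB gave 1 for GB in the second comparison and 3 over the whole span. Quantile normalization gave 1 for GB and 3 for SE in the second comparison, and counting in steps gave 1 for GB there. Lower floors and dividing by the median GB of rows above 0 kept each count within 1.5 times.

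The divisor matters at E15.5, whose median GB was 0.858 times that of E11.5 over all rows but 1.07 times over rows above 0. Scaling by all rows moved the median log2 GB ratio of E15.5 against E11.5 from 0.14 to 0.37, and quantile normalization moved that of PR from 1.0 to 0.01. Of 315 recomputed log2 ratios of single genes, 278 kept their side of the 2-fold mark, and no ratio past it changed sign. Percentiles also depended on the rows used. Among rows above 0 at E15.5, Dnmt3b GB went from the 49.2nd percentile to the 36.3rd and Dnmt1 PR from the 31.6th to the 12.2nd. Counting in steps, plain ratios, dividing by the median GB of rows above 0 and the band of 12000 to 50000 positions were chosen after seeing the data. No paired analysis was possible because no stage had a second library, which also limits each comparison. Depth is not known. The cause was not tested.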
